A study of Rattus norvegicus with 8 samples.

Results

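The genes described here are the myosin heavy chains of the rat that are not part of the usual adult limb muscle set: Myh13 (extraocular), Myh8 (neonatal), Myh3 (embryonic) and Myh6 (alpha-cardiac). Their probe sets were taken by gene symbol from the annotation of the array, which gave 4 of 14217 genes and 5 of the 31042 probe sets measured, with 1 each for Myh13, Myh8 and Myh3 and 2 for Myh6. A further 3 probe sets are listed with Myh8 or Myh6 together with another myosin and are given only beside the members.

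RNA of whole dissected extraocular muscles from 8 adult Sprague-Dawley rats was hybridised to Affymetrix arrays, 1 array per animal. The hyperthyroid rats received triiodothyronine (T3, the active thyroid hormone) by intraperitoneal injection, at 25 µg for each 100 g of weight, every second day over 6 weeks, and the muscles were removed 24 hours after the final dose. The control rats were untreated, and no sham injection is mentioned. The comparison asks how a lasting excess of thyroid hormone changes gene expression in these muscles, and the arrays are called here hyperthyroid 1, 2, 3 and 5 and control 7, 8, 9 and 11, after their titles. All rats started at 200 ± 40 g, and the labels do not give their sex. Values are the deposited signals in arbitrary intensity units, and the array medians ran between 47.8 and 58.5. Because the RNA came from whole muscle, fewer cells of a type and less RNA per cell cannot be told apart.

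A myosin heavy chain is the motor protein of the thick filament, and its isoform largely sets how fast a muscle fibre shortens. Limb muscles of rodents express Myh3 and then Myh8 before and around birth and replace them with the adult chains Myh4 (IIB), Myh1 (IIX), Myh2 (IIA) and Myh7 (slow, beta-cardiac). Extraocular muscles keep Myh3 and Myh8 in adult life and add Myh13, a chain largely restricted to them and to some laryngeal muscle. Myh6 is the main motor of the rodent heart, where thyroid hormone raises it and lowers Myh7, and it also occurs in some extraocular and jaw muscle fibres.

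Of the genes, 3 lie on chromosome 10 in 1 run of 6 sarcomeric myosin heavy chain genes, all on the plus strand, and Myh6 lies apart (rat assembly GRCr8, RefSeq). The order along the chromosome is Myh3 (chr10:52269185-52293000), Myh2, Myh1, Myh4, Myh8 (chr10:52462509-52492105) and Myh13 (chr10:52511773-52567951), over 298.8 kb in all. The adult fast chains therefore sit between the embryonic chain on one side and the neonatal and extraocular chains on the other. Myh6 (chr15:32388102-32413663, minus strand) is next to Myh7, 2861 bases away. The start regions of the 4 genes, from 250 bases before to 50 bases after the listed start, are shown because the study varied a hormone whose receptor binds DNA. They run 5′ to 3′ on the strand of the gene, at chr10:52511523-52511822 (Myh13), chr10:52462259-52462558 (Myh8), chr10:52268935-52269234 (Myh3) and chr15:32411648-32411947 on the minus strand (Myh6). Capitals mark an E-box (CANNTG, the site that myogenic factors such as MyoD recognise) or a TATA box (TATAAA).
Myh13: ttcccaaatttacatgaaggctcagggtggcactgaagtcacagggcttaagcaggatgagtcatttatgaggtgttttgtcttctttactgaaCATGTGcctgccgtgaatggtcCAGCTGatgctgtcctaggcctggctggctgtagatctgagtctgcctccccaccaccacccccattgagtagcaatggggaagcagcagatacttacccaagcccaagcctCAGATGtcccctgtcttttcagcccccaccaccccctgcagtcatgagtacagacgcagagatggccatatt
Myh8: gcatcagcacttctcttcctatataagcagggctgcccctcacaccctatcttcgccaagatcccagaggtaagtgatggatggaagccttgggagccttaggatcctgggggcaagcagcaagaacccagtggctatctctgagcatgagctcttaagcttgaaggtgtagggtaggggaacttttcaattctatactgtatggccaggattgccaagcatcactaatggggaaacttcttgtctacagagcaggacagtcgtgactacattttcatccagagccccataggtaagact
Myh3: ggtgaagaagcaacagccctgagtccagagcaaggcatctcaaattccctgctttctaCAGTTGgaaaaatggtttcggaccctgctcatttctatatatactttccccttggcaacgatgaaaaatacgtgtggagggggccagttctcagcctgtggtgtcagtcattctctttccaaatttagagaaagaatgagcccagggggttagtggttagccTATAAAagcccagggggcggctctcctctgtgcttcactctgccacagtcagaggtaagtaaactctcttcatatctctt
Myh6: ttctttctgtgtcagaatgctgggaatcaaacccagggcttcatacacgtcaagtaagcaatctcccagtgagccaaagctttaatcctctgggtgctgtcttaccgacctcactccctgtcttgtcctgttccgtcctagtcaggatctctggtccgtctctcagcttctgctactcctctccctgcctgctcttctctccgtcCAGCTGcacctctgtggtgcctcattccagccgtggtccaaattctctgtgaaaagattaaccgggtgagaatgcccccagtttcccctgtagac

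Both strands were searched for 7 motifs. E-boxes were found in 3 of the 4 windows, with 3 in Myh13 (at -156, -134 and -22 from the start), 1 in Myh3 (at -192) and 1 in Myh6 (at -45), while 72.1% of all 33469 promoter windows of this length hold at least 1. TATAAA was found only in the Myh3 window among the 4, at -30, and in 14.2% of all windows. No window held the thyroid hormone receptor hexamer AGGTCA (16.2% of all windows), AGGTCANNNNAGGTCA, which is a pair of these in the same direction (0.00598%), the MEF3-type motif TCAGGT (13.9%), the MEF2 core CTAAAAATA (0.511%) or a CArG box (1.64%). The Myh6 window lies inside the extent listed for the gene, so the start used for it is not the outermost one. Whether the listed starts of the 4 genes are where transcription begins was not tested. A match is a description of letters and not a site of binding, and a missing match covers only this window.

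The array labelled hyperthyroid 5 stood apart from the other 7 in these genes. Myh13, a marker of extraocular muscle, read at least 5430.4 on 7 arrays and 4.17 on hyperthyroid 5. On the same array, 10 of the 16 listed Hox genes, which pattern trunk and limb, were above their highest signal on the other 7. Of the 16, 15 missed the filter on dim probe sets, and 6 were under its level of 28.2 units on each of the other 7 arrays. The share above the other 7 was 17.1% of tested probe sets. That share leaves out dim probe sets, so it is not a like background for the Hox count. Of 2 Hox genes picked after their values were seen, Hoxa10 read 399 on hyperthyroid 5 and at most 27.8 elsewhere. Hoxa9 read 345 and at most 36.3. The 4 measured transcription factors of head and extraocular muscle identity were dim or variable. Only Lhx2 was bright enough to test, and it ranged from 3.02 to 100 on the other 7 arrays. Hyperthyroid 5 lay within the range of the other arrays for each of the 4. The group differences of the 4 genes are therefore given with and without hyperthyroid 5. Those of other genes are mostly given without it, and the nearest patterns are given with it. The origin of its signal was not tested.

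Myh13 (probe set 1371075_at), the extraocular chain, read 8789, 9339.6, 6225 and 4.17 on hyperthyroid 1, 2, 3 and 5, against 8904, 5430.4, 8249.5 and 9043 on control 7, 8, 9 and 11. Hyperthyroid 1 and 3 were inside the control range and hyperthyroid 2 just above it, and control 8 was the lowest of the 7. The 7 arrays spanned 1.72-fold, and their lowest was at least 193-fold above hyperthyroid 5, whose signal is under the filter level of 28.2 units and was set to that level for this ratio.

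**Figure D1:**
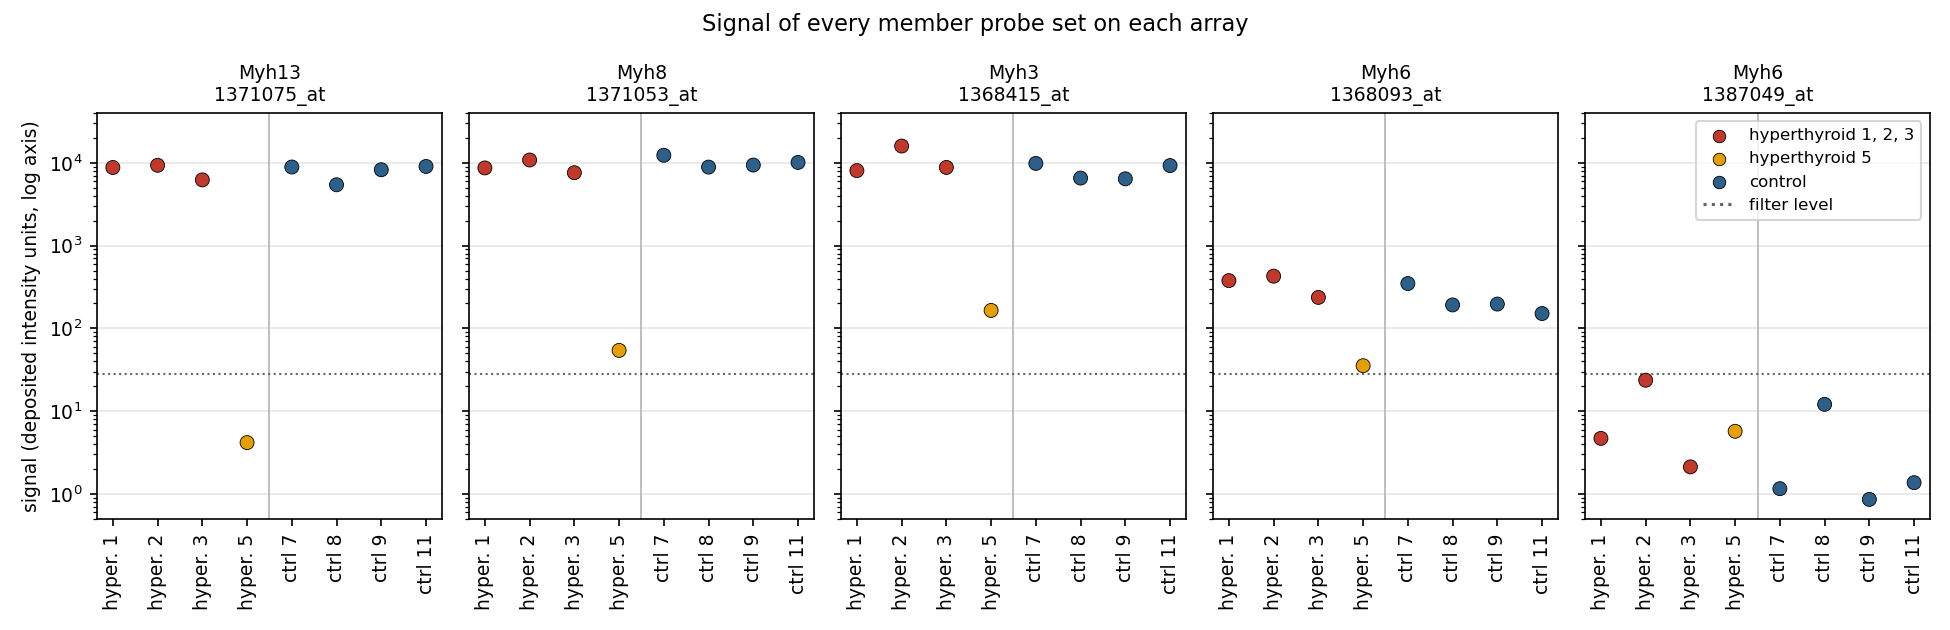
Signal of each of the 5 probe sets on each array (log axis, intensity units), hyperthyroid arrays left of the grey line and control arrays right, with hyperthyroid 5 in orange and the level of the filter on dim probe sets dotted. Hyperthyroid 5 is the lowest point in the first 4 panels (4.17, 54.2, 165 and 35.4), and the second Myh6 probe set stays under the filter level on all 8 arrays.

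Myh8 (1371053_at), the neonatal chain, read 8678, 10822, 7599 and 54.2 on the hyperthyroid arrays, against 12343, 8885, 9401 and 10114.5 on the controls. Hyperthyroid 1 and 3 were below every control and hyperthyroid 2 was inside the control range. The 7 arrays spanned 1.62-fold, the narrowest of the 4 genes, and their lowest was 140 times hyperthyroid 5.

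Myh3 (1368415_at), the embryonic chain, read 8054, 15954, 8802 and 165 on the hyperthyroid arrays, against 9840.1, 6544, 6412 and 9270.4 on the controls. Hyperthyroid 2 alone exceeded all controls, at 1.02 above their mean on the log2 scale, and hyperthyroid 1 and 3 lay between the low and the high pair of controls. The 7 arrays spanned 2.49-fold, and their lowest was 38.9 times hyperthyroid 5.

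Myh6 (1368093_at), the alpha-cardiac chain, read 378, 427, 237 and 35.4 on the hyperthyroid arrays, against 348, 192, 197 and 151 on the controls. Hyperthyroid 1 and 2 were above every control, while control 7 was above hyperthyroid 3, so the groups overlap with or without hyperthyroid 5. The 7 arrays spanned 2.83-fold and their lowest was 4.27 times hyperthyroid 5.

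The second Myh6 probe set (1387049_at) was dim throughout, with 4.69, 23.7, 2.12 and 5.71 on the hyperthyroid arrays, against 1.16, 12.1, 0.859 and 1.37 on the controls. It missed the filter, a mean log2 signal equal to 28.2 units, and was left out of the tests. Its log2 difference in a fit with no filter was 1.53 ± 1.03 (SE, n = 4 each, limma adjusted p = 0.650).

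Over all 8 arrays none of the 4 tested genes passed an adjusted p of 0.05 in limma, the linear model fitted to all probe sets, and the estimates were all negative. The log2 differences, hyperthyroid minus control, were -2.68 ± 1.99 for Myh13 (SE, n = 4 each, limma adjusted p = 0.614), -2.02 ± 1.35 for Myh8 (adjusted p = 0.576), -1.09 ± 1.11 for Myh3 (adjusted p = 0.714) and -0.14 ± 0.65 for Myh6 (adjusted p = 0.948). With a floor of 16 the Myh13 value was -2.20, since it depends on a hyperthyroid 5 signal under the filter level. The count was 0 of 4, against 0% of the 18625 probe sets tested, and at an unadjusted p of 0.05 it was 0 of 4, against 11.5% of all. Groups overlapped for each of the 4, where 7.55% of all probe sets had no overlap. The median difference of the 4 was -1.55, against 0.025 over all tested probe sets.

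These group values rest on 1 array. The mean signal of Myh13 was 6089 ± 4278 in all hyperthyroid rats and 7907 ± 1687 in controls (SD, n = 4 each), and without hyperthyroid 5 the hyperthyroid mean was 8118 ± 1662 (n = 3). Myh8 averaged 6789 ± 4685, or 9033 ± 1641 without hyperthyroid 5, against 10186 ± 1524 in controls. Myh3 averaged 8244 ± 6457, or 10937 ± 4361 without hyperthyroid 5, against 8016 ± 1793 in controls. Over the 7 arrays the coefficient of variation was 16.1% for Myh8 and 19.2% for Myh13, and 34.8% for Myh3, whose highest value is hyperthyroid 2, and 38.9% for Myh6. Among controls alone the SD of the log2 signal was 0.33 for Myh3 and 0.35 for Myh13.

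Without hyperthyroid 5, no gene passed the adjusted threshold either, and 3 of the 4 estimates changed sign. Myh6 had the largest difference, 0.67 ± 0.28 on the log2 scale, or 1.60-fold (SE, 3 against 4 arrays, limma adjusted p = 0.288), with a 95% confidence interval of 1.04 to 2.45-fold. Its mean was 347 ± 98.8 in hyperthyroid rats (SD, n = 3) and 222 ± 86.5 in controls (n = 4). Myh3 was 0.41 ± 0.23 higher on the log2 scale (interval 0.936 to 1.87-fold, limma adjusted p = 0.427), and the estimate is 0.10 without hyperthyroid 2. Myh13 differed by 0.045 ± 0.19 (0.773 to 1.38-fold, adjusted p = 0.936) and Myh8 by -0.18 ± 0.15 (0.706 to 1.11-fold, adjusted p = 0.602).

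**Figure D2:**
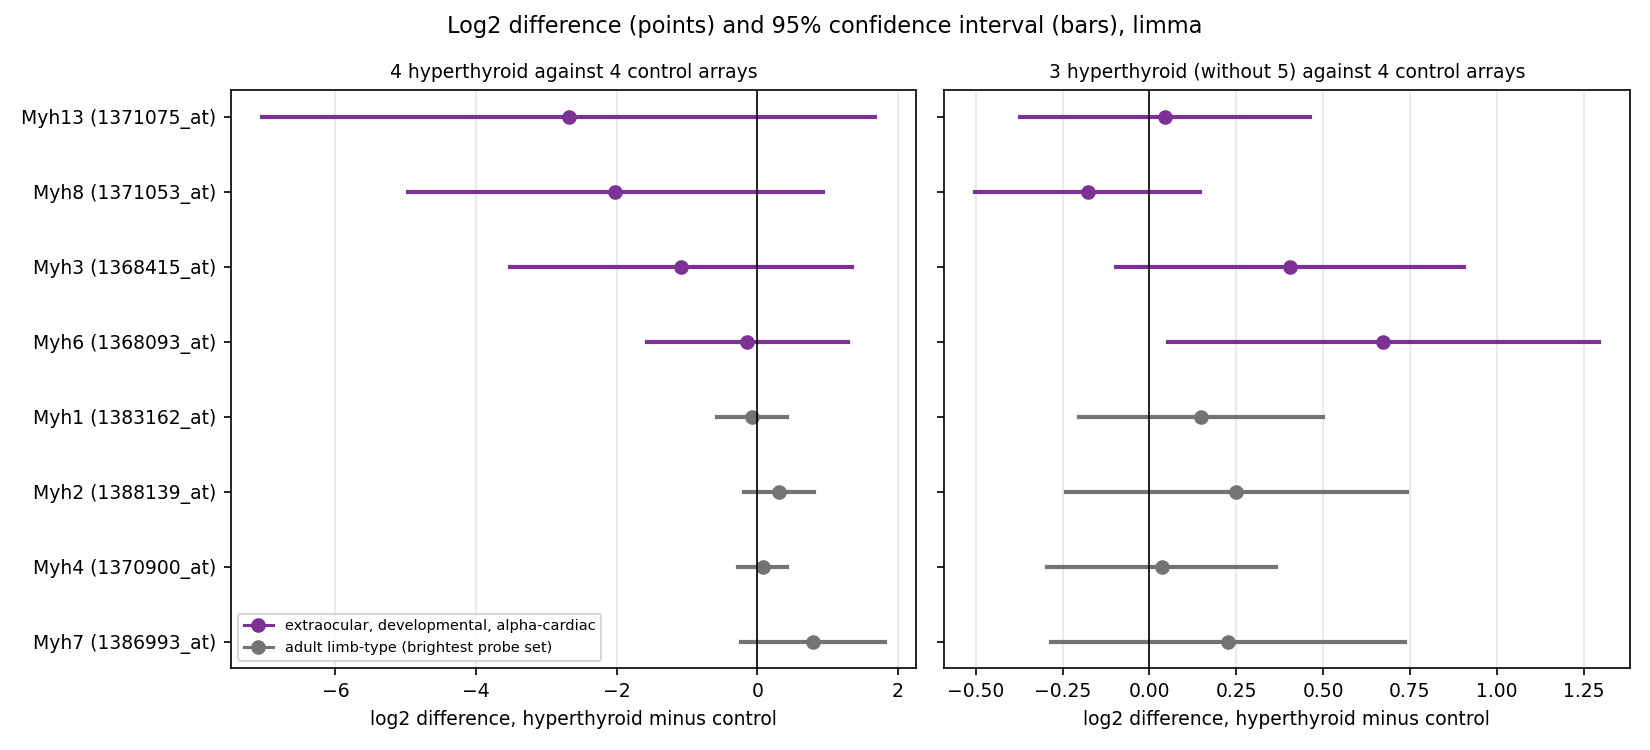
Log2 difference, hyperthyroid minus control, with its 95% confidence interval from limma, for the 4 genes (purple) and for the adult limb-type chains (grey), with all 8 arrays (left) and without hyperthyroid 5 (right; the horizontal scales differ). The intervals of Myh13, Myh8 and Myh3 include 0 in both panels, and that of Myh6 runs from 0.05 to 1.29 in the right panel.

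In the 7 arrays the count past the adjusted threshold was 0 of 4, where 0.156% of the 18625 probe sets passed. At an unadjusted p of 0.05 it was 1 of 4, Myh6, where 15.2% of all probe sets did, and no gene separated the groups, where 14.8% of all did. The median of the 4 was 0.23, with 3 higher and 1 lower, against 0.044 over all tested probe sets. The intervals leave room for a change of up to 1.38-fold upward in Myh13 and down to 0.706-fold in Myh8, so a p above the threshold does not show that these chains were equal.

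Without hyperthyroid 5, the direction of 3 of the 4 differences, Myh6 included, turned when RNA quality entered the fit. The 3 prime to 5 prime ratio of Gapdh, a measure of RNA integrity that is higher in degraded RNA, was 3.91, 4.40, 2.18 and 1.44 on hyperthyroid 1, 2, 3 and 5, against 1.97, 1.68, 1.77 and 1.67 on the controls (two-sided exact permutation p = 0.229 with 4 against 4, and 0.0571, the smallest possible, without hyperthyroid 5). With this ratio as a covariate the 7-array differences were -0.53 ± 0.29 for Myh13, -0.62 ± 0.23 for Myh8, -0.12 ± 0.39 for Myh3 and -0.28 ± 0.42 for Myh6 (SE), each with a limma adjusted p of 0.986. In these 7 arrays the ratio was higher on every hyperthyroid array than on every control, so the fit cannot separate it well from treatment. With all 8 arrays and this covariate the differences were -6.34 for Myh13, -4.50 for Myh8, -3.15 for Myh3 and -1.42 for Myh6 (limma adjusted p 0.0904, 0.0877, 0.100 and 0.128). Hyperthyroid 5 had both the lowest ratio and the lowest signal of each of the 4 genes, so these values rest on that array. Array weights over the 8 arrays gave -1.31, -1.09, -0.34 and 0.20 in the same gene order. Without hyperthyroid 5, Myh13 also turned to -0.018 when arrays were centred on their medians. Hyperthyroid 1 and 2, the arrays with the highest Myh6, also had the highest Gapdh ratios, and the part of this in the result was not tested beyond that fit.

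Against Myh4, the adult IIB chain, the 4 genes showed no difference that passed a test. The per-array log2 signal of each gene minus that of Myh4 was compared between groups, with 4 comparisons per set and p adjusted over them. Without hyperthyroid 5 the hyperthyroid minus control difference was 0.0098 for Myh13, -0.21 for Myh8, 0.37 for Myh3 and 0.64 for Myh6 (two-sided exact permutation p between 0.114 and 0.971, adjusted 0.457 to 0.971; the smallest possible p is 0.0571). With all 8 arrays the differences were -2.76, -2.10, -1.17 and -0.22 in the same gene order (exact p 0.171 to 0.971, adjusted 0.686 to 0.971, smallest possible 0.0286).

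The adult chains in the same cluster did not fall on hyperthyroid 5 to the extent of Myh13, Myh8 and Myh3. Myh4 (1370900_at) read 20185, 23031, 21414 and 24307 on hyperthyroid 1, 2, 3 and 5, against 24436, 18987, 25104 and 16681 on the controls, and hyperthyroid 5 was within the range of the others. Myh2 (1388139_at) was also within range there, and Myh1 (1383162_at) read 4537, below the 5929 to 9638 of the other 7. For the other Myh1 probe sets, hyperthyroid 5 was -0.59 to -0.20 from the mean of the other 7 on the log2 scale. On the log2 scale the distance of hyperthyroid 5 from the mean of the other arrays was -8.12 or lower for Myh13, with its signal set to the filter level, -7.47 for Myh8 and -5.75 for Myh3, but 0.20 for Myh4, 0.40 for Myh2 and -0.81 for Myh1. All 4 genes were at least 4-fold below the lowest of the other 7 arrays, where 1.29% of all tested probe sets were, and 17.8% were below it by any amount.

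**Figure D3:**
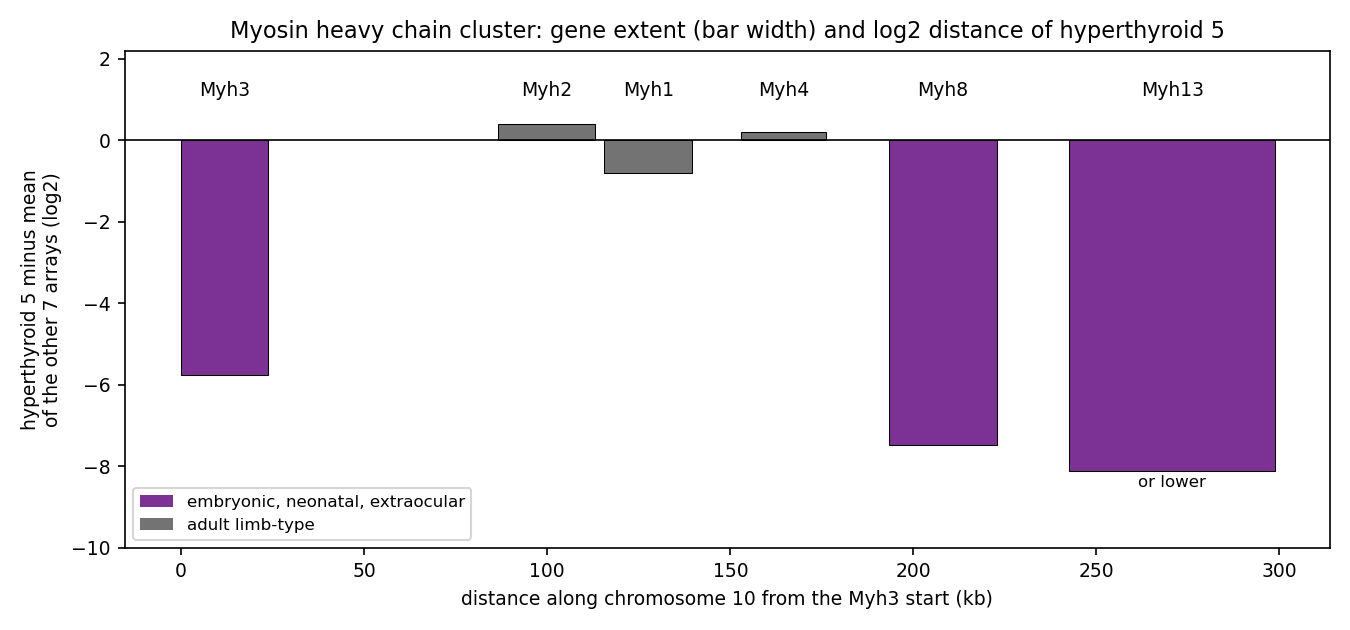
Log2 distance of hyperthyroid 5 from the mean of the other 7 arrays for the 6 genes of the chromosome 10 cluster, with bar width showing the extent of each gene in kb from the start of Myh3. The bar of Myh13 is a bound, -8.12 or lower. Myh3 and Myh8 lie at -5.75 and -7.47 and the inner adult genes Myh2, Myh1 and Myh4 between -0.81 and 0.40.

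The cardiac pair on chromosome 15 diverged on that array. Myh7 (1386993_at), the slow chain, read 2703, 4097, 1797 and 13031 on the hyperthyroid arrays, against 2728, 2308, 1795 and 2546 on the controls, so hyperthyroid 5 had the highest Myh7 and the lowest Myh6 of the 8. The probe set listed with both Myh7 and Myh6 (1398248_s_at) followed Myh7, with 969, 1857, 639 and 5403 on the hyperthyroid arrays, against 940, 1114, 644 and 1137 on the controls. The other probe set listed with both (1396165_at) missed the filter. In the 7 arrays Myh7 differed by 0.23 ± 0.23 on the log2 scale (limma adjusted p = 0.673), and its second, dimmer probe set (1367928_at) by -0.73 ± 0.39 (adjusted p = 0.40), so the probe sets disagree in sign. The probe set listed with Myh2, Myh1 and Myh8 (1370971_at) did not follow Myh8 and read 18296, 24802, 15054 and 16017 on the hyperthyroid arrays, against 15342, 18304, 15363 and 12452 on the controls. None of the 4 adult chains, by the brightest probe set, passed the adjusted limma threshold in either fit. At an unadjusted limma p of 0.05 the count was 0 of 4 in either fit. The share of all probe sets was 11.5% with 8 arrays and 15.2% without hyperthyroid 5.

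Among 23 developmental muscle genes chosen to accompany Myh3 and Myh8, 17 had a probe set and 15 were tested; none passed the adjusted threshold. In the 7 arrays 6 were higher and 9 lower, with a median of -0.13 against 0.044 over all probe sets. At an unadjusted p of 0.05, 2 of the 15 were lower, against 15.2% of all probe sets in either direction: Des (desmin, an intermediate filament) at -0.57 ± 0.16 (SE, limma adjusted p = 0.149) and Vim (vimentin) at -0.48 ± 0.20 (adjusted p = 0.280). Hyperthyroid 5 was below all other arrays in 8 of the 15, against 17.8% of all probe sets. Tnnt2, the cardiac and embryonic troponin T, read 6.76 there and 146 to 234 elsewhere. Ncam1, a cell adhesion molecule, read 14.6 there and 124 to 315 elsewhere. Chrna1, the alpha subunit of the muscle acetylcholine receptor, read 58.3 there and 478 to 759 elsewhere.

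**Figure D4:**
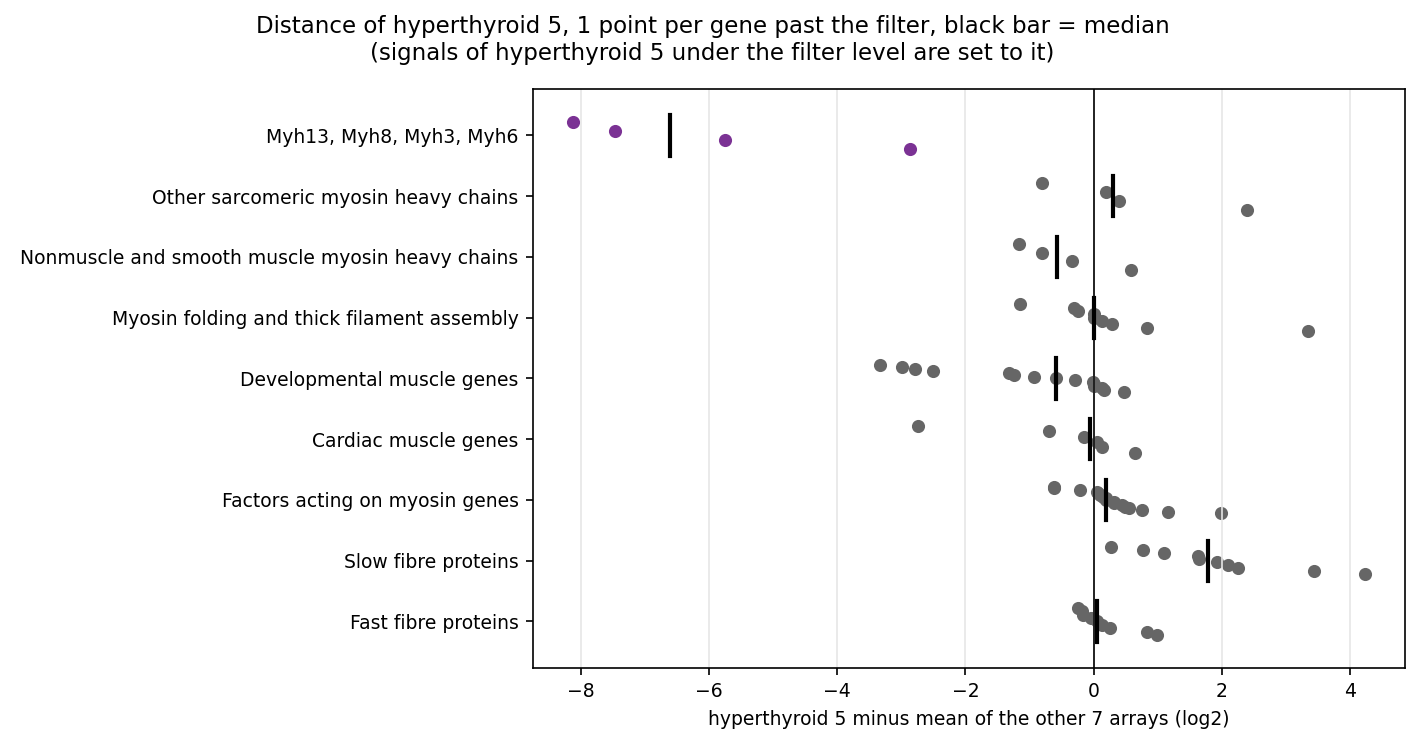
Log2 distance of hyperthyroid 5 from the mean of the other 7 arrays, 1 point per gene past the filter and a black bar at the median, for the 4 genes (top) and 8 lists of muscle genes, with signals of hyperthyroid 5 under the filter level set to that level. The median is -6.61 for the 4 genes, -0.59 for the developmental list and 1.78 for the slow fibre list, against 0.026 over all tested probe sets.

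Cardiac genes that accompany Myh6 moved in no single direction. Of 15 listed, 14 had a probe set, 6 were tested and none passed, with 3 higher and 3 lower in the 7 arrays. An unadjusted limma p under 0.05 was found for 1 each way (Mybpc3 higher and Pln lower), against 15.2% of all probe sets in either direction. Mybpc3, the cardiac form of myosin binding protein C, read 111, 132, 176 and 60.1 on the hyperthyroid arrays, against 32.7, 79.1, 10.5 and 31.4 on the controls. Only hyperthyroid 5 lay inside the control range, and 14.8% of all probe sets had no overlap in the 7 arrays. The 7-array log2 difference was 2.18 ± 0.57 (limma adjusted p = 0.128). Its size is imprecise, since control 9 was under the filter level of 28.2 units and control 7 and 11 were just above it. Pln (phospholamban, the inhibitor of the calcium pump) read 648, 950.2, 826 and 161 on the hyperthyroid arrays, against 1638, 1105, 1195 and 1534 on the controls. All hyperthyroid values were below all controls, and 7.55% of all probe sets had no overlap over the 8 arrays. The 7-array difference of Pln was -0.76 ± 0.17 (limma adjusted p = 0.0949). Atrial markers missed the filter, with Myl7, the atrial light chain, at 1.54 to 28.5 and Nppa, a natriuretic peptide, at 2.21 to 56.8 over the 8 arrays, the highest on control 7.

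Among 22 transcription factors known to act on myosin genes, 17 were tested and none passed the adjusted threshold. In the 7 arrays 12 were higher and 5 lower (median 0.17). Of these, 1 higher (Tead4) and 1 lower (Vgll2) had an unadjusted limma p under 0.05, against 15.2% of all probe sets in either direction. Vgll2, a cofactor of TEAD proteins, read 90.5, 82.9, 112 and 312 on the hyperthyroid arrays, against 207, 171, 220 and 158 on the controls. Hyperthyroid 1, 2 and 3 were below every control and hyperthyroid 5 above every one. In the 7 arrays 14.8% of all probe sets had no overlap, and the difference of Vgll2 was -0.99 ± 0.22 (limma adjusted p = 0.0929). Tead4, a TEAD factor, was 1.44 ± 0.55 higher (adjusted p = 0.248). It read 76.7, 119, 71.4 and 195 on the hyperthyroid arrays, against 16.7, 83.7, 30.5 and 24.6 on the controls. Control 8 was above hyperthyroid 1 and 3. Control 7 and 11 were under the filter level of 28.2 units, so the size of the Tead4 difference is imprecise. Thrb and Thra, the thyroid hormone receptors, differed by 0.41 ± 0.19 (adjusted p = 0.338) and 0.10 ± 0.26 (adjusted p = 0.890).

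Of 13 genes for myosin folding and thick filament assembly 9 were tested, with 2 higher, 7 lower and none past the adjusted threshold in the 7 arrays. At an unadjusted p of 0.05 there were 1 higher (Unc45a, a myosin chaperone) and 2 lower (Hsp90ab1 and Myom2), against 15.2% of all probe sets in either direction. Hsp90ab1, a cytosolic chaperone, had the smallest p, at -0.56 ± 0.12 in the 7 arrays (limma adjusted p = 0.0788). Myom2, the M-band protein of fast fibres, read 269, 439, 302 and 4727 on the hyperthyroid arrays, against 758, 627, 847 and 335 on the controls. Control 11 lay among hyperthyroid 1 to 3, and hyperthyroid 5 was the highest of all. The nonmuscle and smooth muscle heavy chains Myh9, Myh10, Myh11 and Myh14 were all 4 above the controls in the 7-array estimates, and 3 had an unadjusted p under 0.05, against 15.2% of all probe sets: Myh11 at 0.65 ± 0.24 (adjusted p = 0.234), Myh9 at 0.41 ± 0.16 (adjusted p = 0.262) and Myh14 at 0.39 ± 0.18 (adjusted p = 0.323).

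Slow fibre markers were high on hyperthyroid 5, and fast fibre markers were within the range of the other arrays in sum. The summed signal of 10 slow fibre proteins was 71017 on that array, 16706 to 33914 on hyperthyroid 1 to 3 and 16485 to 23878 on the controls, with 9 of the 10 above all other arrays, against 17.1% of all probe sets. Ankrd2, a stretch-responsive ankyrin repeat protein of slow fibres, read 2059 there and at most 155 elsewhere, and Myl3, the slow and ventricular light chain, read 9380 and at most 1421. The sum over 9 fast fibre proteins was 192041 on hyperthyroid 5, 159116 to 204661 on hyperthyroid 1 to 3 and 168854 to 223207 on the controls. On hyperthyroid 5, 2 of the 9, Actn3 and Mybpc2, were above all other arrays, against 17.1% of all probe sets.

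Markers of other cell types varied beside the members. Oligodendrocyte markers, which the optic nerve can carry into a dissection, summed to 1696 on hyperthyroid 5, 1877 to 6872 on hyperthyroid 1 to 3 and 4887 to 8741 on the controls; Mobp, a central myelin protein, read 2285, 15.3, 1528 and 1.37 on hyperthyroid 1, 2, 3 and 5, against 1249 to 2975 on the controls. Adipocyte markers summed to 12059 on hyperthyroid 5, 971 to 4168 on hyperthyroid 1 to 3 and 2219 to 3674 on the controls. Fibroblast markers, which include the fibrillar collagens, summed to 41804, 12759 to 21408 and 19184 to 36612 in the same order. The 6 were not alike on hyperthyroid 5, where 3 were above all other arrays and 2 below, against 17.1% and 17.8% of all probe sets. Schwann cell markers summed to 3046 on hyperthyroid 5, 6190 to 12687 on hyperthyroid 1 to 3 and 7048 to 13752 on the controls. Leukocyte markers summed to 2772 on hyperthyroid 5, 846 to 1011 on hyperthyroid 1 to 3 and 885 to 1396 on the controls. Epithelial markers summed to 58.2, 190 to 383 and 428 to 1136 in the same order, and endothelial markers to 2253, 2585 to 2746 and 1963 to 2549. None of these lists held a gene past the adjusted limma threshold in either fit. At an unadjusted p of 0.05 in the 7 arrays, 5 of 6 fibroblast, 2 of 5 adipocyte, 1 of 9 oligodendrocyte and 1 of 4 epithelial markers were lower and 1 of 6 endothelial markers was higher, with 0 of 4 Schwann cell and 0 of 6 leukocyte markers, against 15.2% of all probe sets. Their part in the results for the 4 genes was not tested.

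All 6 pairs of the 4 genes were closer in pattern without hyperthyroid 5. The root mean square difference of 2 genes' log2 signals, each set against its control mean, was 1.19 between Myh13 and Myh8 over 8 arrays and 0.24 over the 7. Over 8 arrays it was largest between Myh13 and Myh6, at 2.97, and over the 7 between Myh8 and Myh6, at 0.62. The genes nearest to Myh13 over the 8 arrays were Myh8 (1.19), Rab15 (1.21), Ttyh1 (1.37), Klk1 (1.43) and Fndc3c1 (1.47). For Myh8 they were Klk1 (0.36), Ttyh1 (0.39), Rab15 (0.39), Fndc3c1 (0.40) and Slc6a17 (0.47). Klk1 is tissue kallikrein, a secreted protease, and Rab15 a GTPase of endosomes. For Myh3 they were Frzb (0.28), Pcp4 (0.33), Rab9b (0.43), Wdr17 (0.43) and Clec3a (0.46). For Myh6 they were Dhh (0.30), Entpd6 (0.34), Nrsn1 (0.35), Osgin2 (0.36) and Tmem130 (0.38). Klk1 read 3.60 on hyperthyroid 5 and 367 to 534 elsewhere, and Frzb, a secreted Wnt antagonist, read 41.1 and 2385 to 4203. Signals under the filter level on hyperthyroid 5 were not raised to that level for these distances, and only those below 1 were set to 1. Apart from Myh8, Frzb and Osgin2, every neighbour named here was under that level on hyperthyroid 5. The order is therefore imprecise for all 4 genes, and it depends largely on the drop on that array. Nearest genes over the 7 arrays were not sought.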

How the data were processed

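Total RNA of whole extraocular muscle was labelled with biotin and hybridised to Affymetrix arrays. The deposited table holds 1 intensity value per probe set and array, made by the authors with GCOS, the array maker's software, per the submitters' processing notes; further steps are not given in the sources used here. No column of another sample was present. The 57 manufacturer control probe sets were left out of 31099. Signals below 1 were set to 1, taken to log2 and not normalized again, and the upper 60% by mean log2 signal, 18625 probe sets, were fitted in R 4.3.3 by limma 3.58.1, whose eBayes step used a mean-variance trend, with two-sided p adjusted by Benjamini-Hochberg over all 18625. Single ratios used exact permutation tests. The number of arrays limits the precision. The labels name no batch, and p-values measure the spread between these samples. The mean signal after trimming 2% at each end was nearly equal on the 8 arrays, so the deposited values had been scaled before. Probe sets were named from the array annotation, where 20826 have 1 gene symbol, 436 several and 9780 none.

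Genes were named by rule: every member probe set; every adult sarcomeric chain by its brightest probe set; up to 3 genes per list with the smallest p without hyperthyroid 5, and for 6 lists up to 3 farthest on hyperthyroid 5; and the 5 nearest patterns per member. Hoxa9, Hoxa10, Thra, Myl7, Nppa, Actn3, Mybpc2 and Myh10 were named outside this rule, after their values were seen. The members and lists were chosen with earlier results of these data known. Promoter windows and positions are from RefSeq (GRCr8); all 4 symbols matched, 3 with the same gene ID, and Myh13 by symbol only. Alternatives covered scaling, filters, floors, variance models, array weights, RNA quality and leaving out each array.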

Additional observations from a re-analysis of the deposited data

Results flagged for a closer look

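Within a group of 4 arrays, a value is listed here when its distance to the nearest other array, as a share of the group's range on the log2 scale, is above Dixon's 95% critical value for 4 samples. Chance lists about 1 in 20 groups. Among hyperthyroid arrays, hyperthyroid 5 met this for Myh13 (1371075_at), with a signal of 4.17, under the filter level, and a share of 0.947. It also met it for Myh8 (1371053_at), at 54.2 and a share of 0.933, and for Myh3 (1368415_at), at 165 and a share of 0.851. Myh6 (1368093_at) on the same array, at 35.4, had a share of 0.763 and did not. Among controls, the dim Myh6 probe set 1387049_at met it on control 8, at 12.1 and a share of 0.874, with the other 3 controls between 0.859 and 1.37.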

How the results depend on the processing

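No paired analysis was possible because the groups share no replicate number. No member passed the adjusted threshold under any setting. Over all 8 arrays, 0 probe sets passed, against 6 with array weights, 8 with the Gapdh ratio as a covariate and 0 to 29 when 1 array was left out (29 without hyperthyroid 5). In the 7 arrays, 29 passed (10 higher, 19 lower), against 36 with quantile normalization (21 higher, 15 lower), 53 with median centring (9 higher, 44 lower), 71 with no filter, 85 with the upper 40%, 78 with 32 added, 70 with a floor of 16, 0 without a trend and 1 with the Gapdh ratio. Leaving out a further array gave 0 to 144: 144 came without hyperthyroid 3; removing control 7, hyperthyroid 2 or control 9 gave 11, 9 and 2, and removing control 8, control 11 or hyperthyroid 1 gave 0. Member log2 differences turned as follows. With all 8 arrays, leaving out 1 gave -3.66 to 0.045 for Myh13, -2.72 to -0.18 for Myh8, -1.79 to 0.41 for Myh3 and -0.52 to 0.67 for Myh6; the positive values came without hyperthyroid 5, and Myh6 was also 0.10 without control 7 and 0.20 with array weights. With the Gapdh ratio the 4 were -6.34, -4.50, -3.15 and -1.42 in the same order, and with array weights the first 3 were -1.31, -1.09 and -0.34. In the 7 arrays, Myh13 was -0.018 with median centring, and with the Gapdh ratio Myh13 was -0.53, Myh3 -0.12 and Myh6 -0.28; leaving out 1 gave -0.13 to 0.23 for Myh13, -0.32 to -0.060 for Myh8, 0.10 to 0.59 for Myh3 and 0.50 to 0.93 for Myh6. Relative to Myh4, Myh6 over 8 arrays was 0.62 with the mean over probe sets; leaving out 1 gave -3.76 to 0.0098 for Myh13, -1.85 to 0.37 for Myh3 and -0.59 to 0.64 for Myh6. In the 7 arrays Myh13 relative to Myh4 was -0.10 against the mean of Myh1, Myh2 and Myh4, and -0.11 to 0.19 when 1 was left out. The causes were not tested. The number of arrays, and signals near the filter level, limit the precision.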
